A study of Mus musculus with 50 samples.

Results

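The 9 genes Tmem119, Cx3cr1, Sall1, Siglech, Gpr34, Olfml3, Fcrls, Selplg and Sparc belong to the homeostatic signature of microglia and were matched by symbol to the gene names of the count tables. Each symbol was found once among the 53700 genes, and all 9 were among the 16696 genes that passed a filter of at least 1 CPM (counts normalized to library size) in more than 2 mice. Hippocampal microglia of male C57BL/6J mice were sorted as CD45int CD11b+ cells, and each mouse gave 1 RNA library. Early-life stress (ELS) was limited bedding and nesting material from postnatal day (P) 2 to P9, and control (CTR) mice were reared without it. At P9, 12 CTR and 13 ELS mice were killed without an injection. At P200, PBS was injected in 7 CTR and 6 ELS mice, and 1 mg/kg lipopolysaccharide (LPS), a bacterial cell wall component, in 7 CTR and 5 ELS mice, all killed 3 h later. Groups are named by age, condition and injection, for example P200-ELS-LPS. Myelin was removed on Percoll at P200 only, so that age, injection and this step cannot be told apart. In the mouse labels the number before the point was read as the nest, and mice are named here by nest and number.

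Microglia are the resident macrophages of the brain parenchyma. In the undisturbed adult brain they express a set of surface receptors, secreted proteins and transcription factors that other macrophages lack or express at low levels, and this program depends on transforming growth factor beta (TGF-beta) and on the transcription factor Sall1. The program is acquired after birth, and parts of it are lowered when microglia respond to injury or to inflammatory stimuli. In bulk RNA of sorted cells, fewer cells of a type and less RNA per cell cannot be told apart.

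Libraries held between 5152838 and 42231258 counts. Of the P9-ELS mice, mouse 2 of nest 19 had 15731 genes with a count and mouse 3 of nest 19 had 12482, and mouse 1 of nest 1 in P200-CTR-PBS had 12854, against at least 16485 in each of the other 47 mice. Where these 3 libraries set a range or change a result of a member, the value without them is given beside it. The microglia and macrophage genes Itgam, Ptprc, Aif1, P2ry12, Csf1r, C1qa and Ctss all passed the filter.

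The members lie on 7 chromosomes of the GRCm39 genome. Tmem119 (chromosome 5, 113931781 to 113938577, minus strand) and Selplg (chromosome 5, 113956597 to 113970705, minus strand) are neighbours, 18019 bases apart with 0 protein-coding genes between them. Cx3cr1 is at 119877749 to 119898945 on chromosome 9, Sall1 at 89753863 to 89770823 on chromosome 8 and Sparc at 55285317 to 55314067 on chromosome 11, all on the minus strand. Fcrls (87156616 to 87181827) and Olfml3 (103629538 to 103645322) share the minus strand of chromosome 3. Siglech (chromosome 7, 55417926 to 55429195) and Gpr34 (chromosome X, 13489625 to 13507116) are on the plus strand. Gpr34 overlaps Cask and Cx3cr1 overlaps Gm33858, both on the opposite strand. Cask had a median of 832 counts and Gm33858 of 580, against at least 5174 counts of Gpr34 and 21176 of Cx3cr1 in every mouse. The strand setting of the counting is not given in the sources used here.

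The 250 bases before the annotated start of the canonical transcript were read for 16587 tested genes. Of these, 3 are shown because they belong to the neighbouring pair that rose most with age, Tmem119 and Selplg, and to Siglech, a member that was not called in any comparison. The window of Selplg shares 53 bases with an exon of the opposite-strand lncRNA Gm71766, that of Siglech 6 bases with its own first exon, and that of Tmem119 holds no annotated exon. Capitals mark the SMAD element CAGAC and the AP-1 motif TGANTCA on either strand.
Tmem119 (chr5:113938578-113938827, minus strand): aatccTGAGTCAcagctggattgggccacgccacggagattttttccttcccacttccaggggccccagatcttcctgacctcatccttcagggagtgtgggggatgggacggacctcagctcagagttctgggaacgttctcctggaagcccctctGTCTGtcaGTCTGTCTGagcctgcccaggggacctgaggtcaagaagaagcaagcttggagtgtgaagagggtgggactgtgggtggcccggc
Selplg (chr5:113968568-113968817, minus strand): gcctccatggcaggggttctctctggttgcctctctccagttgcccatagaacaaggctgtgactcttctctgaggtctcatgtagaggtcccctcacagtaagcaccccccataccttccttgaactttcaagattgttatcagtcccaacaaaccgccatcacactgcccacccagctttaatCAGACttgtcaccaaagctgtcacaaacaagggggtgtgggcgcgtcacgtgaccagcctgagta
Siglech (chr7:55417682-55417931, plus strand): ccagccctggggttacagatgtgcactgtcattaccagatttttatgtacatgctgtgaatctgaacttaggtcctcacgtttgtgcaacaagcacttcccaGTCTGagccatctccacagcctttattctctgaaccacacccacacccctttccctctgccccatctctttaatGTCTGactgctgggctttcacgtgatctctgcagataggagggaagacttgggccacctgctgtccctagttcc
CAGAC, or its reverse complement, was found in the windows of 6 of the 9 members and in 41.6% of all windows. The AP-1 motif was found in 1 member window, that of Tmem119, and in 4.93% of all windows. The PU.1 core GAGGAA was found before Fcrls alone among the members and in 23.4% of all windows, and the interferon-stimulated response element (GAAA, any 2 bases, GAAA) before 0 members and in 3.1% of all windows. All motifs were searched on both strands, and in the member windows only 2 neighbouring CAGAC matches before Tmem119 overlap, by a base. A match is a description of the letters, not a binding site.

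Per length, all members but Sall1 were at rank 137 or higher of 16588 tested genes with a length in P9-CTR. Per kb of merged exons, P9-CTR mice had 1482 ± 225 CPM of Cx3cr1 (SD, n = 12) and 34.5 ± 3.33 of Sall1, the highest and the lowest level of the 9. In P200-CTR-PBS mice the highest level was that of Tmem119, with 2625 ± 176 CPM per kb (SD, n = 7), and Sall1 was again the lowest with 44.3 ± 8.57. Tmem119 was at rank 47 in P9-CTR and at rank 7 in P200-CTR-PBS. Sall1, a transcription factor, was at rank 884 and at rank 705. Selplg moved from rank 88 to rank 14. Sall1 had the lowest level in all 6 groups also per kb of the canonical transcript, where Fcrls was highest in P9-CTR (2592 CPM per kb) and Selplg in P200-CTR-PBS (4282). Together the 9 genes took 2.53% ± 0.298 of the normalized counts in P9-CTR (SD, n = 12), 4.44% ± 0.198 in P200-CTR-PBS (n = 7) and 3.75% ± 0.167 in P200-CTR-LPS (n = 7). In ELS the share was 2.58% ± 0.297 at P9 (n = 13), 4.34% ± 0.312 after PBS (n = 6) and 4.11% ± 0.599 after LPS (n = 5). The PBS and LPS ranges did not overlap in CTR (4.12% to 4.69% and 3.42% to 3.96%) and overlapped in ELS (4.04% to 4.84% and 3.46% to 5.08%).

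**Figure D1:**
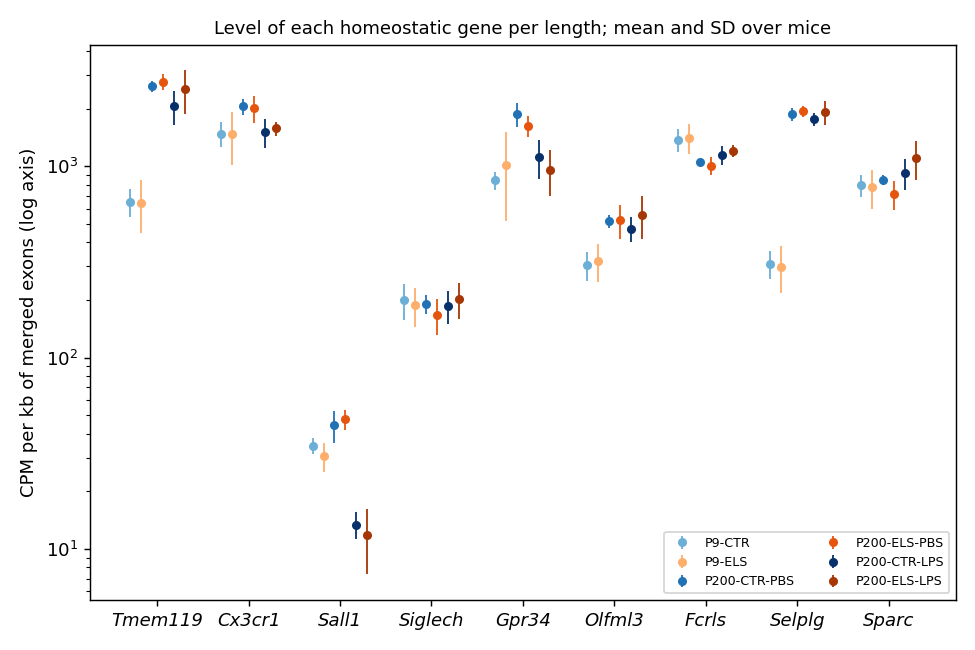
Mean level of each gene in CPM per kb of merged exons (logarithmic axis) with the SD over mice, for the 6 groups. Sall1 lies below all other genes in every group, and the P9 and P200 groups are farthest apart for Selplg and Tmem119.

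The first comparison concerned age, P200-PBS against P9 within CTR and within ELS mice. A gene was called with a Benjamini-Hochberg adjusted p under 0.05 in edgeR's quasi-likelihood test across all tested genes. In CTR mice 7 of the 9 members were called, where 44.1% of all tested genes were (4445 lower and 2911 higher). In ELS mice the same 7 were called, where 42.2% were (4182 lower and 2863 higher). Of these 7, Selplg, Tmem119, Gpr34, Olfml3, Cx3cr1 and Sall1 were higher at P200 and Fcrls was lower in both conditions. Over the 9 members the median was 0.47 on the log2 scale in CTR mice and 0.64 in ELS mice, against -0.09 and -0.01 over all tested genes. Past a 2-fold change were 3 members in CTR and 2 in ELS, where 26.4% and 26.2% of all tested genes were called at that size.

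Among the surface molecules, Selplg, the ligand through which leukocytes bind selectins, rose most. Its level in CPM was 933 at the lowest, 1316 at the median and 1614 at the highest in P9-CTR, and 7298, 7801 and 9272 in P200-CTR-PBS. In P9-ELS it was 442, 1328 and 1892, and in P200-ELS-PBS 7482, 8284 and 8998. Every P200 mouse was above every P9 mouse. The ends of the P9-ELS range were libraries of few genes, without which it was 963.9 to 1506 CPM, and so was the lowest P200-CTR-PBS mouse, without which the lowest was at 7679 CPM. In CTR its log2 fold change was 2.61 ± 0.13 (SE, adjusted p = 2.42e-22), and in ELS 2.69 ± 0.13 (adjusted p = 1.58e-22), which is 6.09-fold and 6.47-fold.

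Tmem119, a transmembrane protein used as a marker of resident microglia, was next. The lowest, median and highest levels were 1250.4, 2224 and 2558 CPM in P9-CTR and 7677, 8412 and 9451 CPM in P200-CTR-PBS. They were 179.8, 2258 and 2660.5 CPM in P9-ELS and 7527, 9146 and 9932 CPM in P200-ELS-PBS. Ages did not overlap in either condition. The lowest P9-ELS value came from mouse 2 of nest 19 and the highest from mouse 3 of nest 19, and without the 3 libraries of few genes the P9-ELS mean was 2234 ± 282 CPM (SD, n = 11) in place of 2109 ± 645 (n = 13). Tmem119 rose 4.03-fold in CTR (log2 fold change 2.01 ± 0.20 SE, adjusted p = 5.63e-12) and 4.29-fold in ELS (95% interval of the log2 fold change from 1.71 to 2.49, adjusted p = 2.2e-12).

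Gpr34 encodes a receptor for lysophosphatidylserine. It was at 2146, 2513 and 3037 CPM (lowest, median, highest) in P9-CTR and at 4773, 5692 and 7254 CPM in P200-CTR-PBS, so that the groups did not overlap. In P9-ELS the values were 927, 2919.7 and 7727 CPM, and in P200-ELS-PBS 4219.9, 4992 and 5838 CPM. The P9-ELS range was set at both ends by the libraries of few genes, mouse 3 of nest 19 at the bottom and mouse 2 of nest 19 at the top, and was 2301 to 3403 CPM without them. The highest P200-CTR-PBS mouse was also such a library, without which the highest was at 6009.6 CPM. Gpr34 rose by a log2 fold change of 1.15 ± 0.18 (SE, adjusted p = 4e-07) in CTR and 0.68 ± 0.18 (adjusted p = 0.00196) in ELS. Without the 3 libraries these values were 1.09 and 0.79.

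The chemokine receptor Cx3cr1, which binds the neuronal chemokine fractalkine, had the highest level per kb of merged exons at P9, though not per kb of the canonical transcript, and changed less. It was at 4124, 7113 and 8307 CPM (lowest, median, highest) in P9-CTR and at 7943, 9725 and 10663 CPM in P200-CTR-PBS. Of the P200-CTR-PBS mice 6 of 7 were above every P9-CTR mouse. In P9-ELS it was at 1072, 7196 and 10402 CPM and in P200-ELS-PBS at 7936, 9138 and 11471 CPM, with 2 of 6 P200 mice above every P9 mouse. The lowest P9-ELS mouse was a library of few genes, without which the lowest was at 5188 CPM. Its log2 fold change was 0.47 ± 0.17 (SE, adjusted p = 0.0226) in CTR and 0.46 ± 0.18 (adjusted p = 0.0338) in ELS. The call in ELS was lost without the P200-ELS-PBS mouse of nest 2 (adjusted p = 0.0981), nest 4 (0.0754) or nest 11 (0.0656), in a fit of the groups compared alone (0.185), and without a filter on low counts (0.0576). In CTR it was lost in the limma fit with the nest as random effect (adjusted p = 0.0528).

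Siglech, a lectin of the Siglec family that signals through the adaptor Tyrobp, was not called in either condition. Its mean was 978 ± 204 CPM (SD, n = 12) in P9-CTR, 935 ± 104 (n = 7) in P200-CTR-PBS, 919 ± 208 (n = 13) in P9-ELS and 819 ± 176 (n = 6) in P200-ELS-PBS, with overlapping ranges. At P9 it differed between nests, with 982 to 1196 CPM in the mice of nests 9, 15, 17 and 19, 548 to 868 CPM in those of nests 51, 52, 53 and 55, and 965 and 1154 CPM in the 2 mice of nest 58. The log2 fold change of -0.06 in CTR had a 95% interval from -0.34 to 0.21, and that of -0.17 in ELS one from -0.45 to 0.12. Fcrls, a scavenger receptor of the Fc receptor-like family, was the member that fell. It was at 4072, 6154 and 6651 CPM (lowest, median, highest) in P9-CTR and at 4214, 4501 and 4814 CPM in P200-CTR-PBS. The P200 range lay within that of P9. In P9-ELS it was at 2701, 6312 and 6935 CPM, and in P200-ELS-PBS at 3686, 4324 and 5129 CPM. Without the libraries of few genes the lowest P9-ELS mouse was at 5727 CPM, above every P200-ELS-PBS mouse. For Fcrls the log2 fold change was -0.39 ± 0.11 (SE, adjusted p = 0.00212) in CTR and -0.48 ± 0.11 (adjusted p = 0.000394) in ELS.

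The secreted members differed. Olfml3, an olfactomedin-like glycoprotein of the extracellular matrix, rose from a mean of 1874 ± 328 CPM (SD, n = 12) in P9-CTR to 3177 ± 236 (n = 7) in P200-CTR-PBS without overlap. Its log2 fold change was 0.76 ± 0.13 (SE, adjusted p = 4.8e-06) in CTR and 0.71 ± 0.14 (adjusted p = 2.89e-05) in ELS. In ELS the ages overlapped, at 917.4 to 2735 CPM in P9-ELS and 2596.6 to 4290.8 CPM in P200-ELS-PBS. Of the P200-ELS-PBS mice, 4 of 6 were above every P9-ELS mouse. Both ends of the P9-ELS range were libraries of few genes, without which it was 1545.5 to 2323.9 CPM, below every P200-ELS-PBS mouse. Sparc, a matricellular protein, was not called, with means of 3395 ± 434 CPM in P9-CTR and 3618 ± 227 in P200-CTR-PBS and 95% intervals of the log2 fold change from -0.16 to 0.34 in CTR and from -0.38 to 0.14 in ELS.

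Sall1, the zinc finger transcription factor that keeps microglial identity, was at 203, 232 and 290.4 CPM (lowest, median, highest) in P9-CTR and at 186, 315 and 360.3 CPM in P200-CTR-PBS. It was at 126, 222 and 253 CPM in P9-ELS and at 261, 328 and 375 CPM in P200-ELS-PBS, without overlap in ELS. The lowest P200-CTR-PBS value was that of mouse 1 of nest 1 and the lowest P9-ELS value that of mouse 2 of nest 19, both libraries of few genes, without which the lowest were at 283.6 and 152.6 CPM. For Sall1 the log2 fold change was 0.36 ± 0.13 (SE, adjusted p = 0.0255) in CTR and 0.64 ± 0.14 (adjusted p = 0.000153) in ELS. In CTR the call was lost without mouse 1 of nest 5 (adjusted p = 0.0515), mouse 1 of nest 8 (0.069) or mouse 2 of nest 18 (0.0618) of the P200-CTR-PBS group, and the adjusted p without the 3 libraries of few genes was 0.0019.

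**Figure D2:**
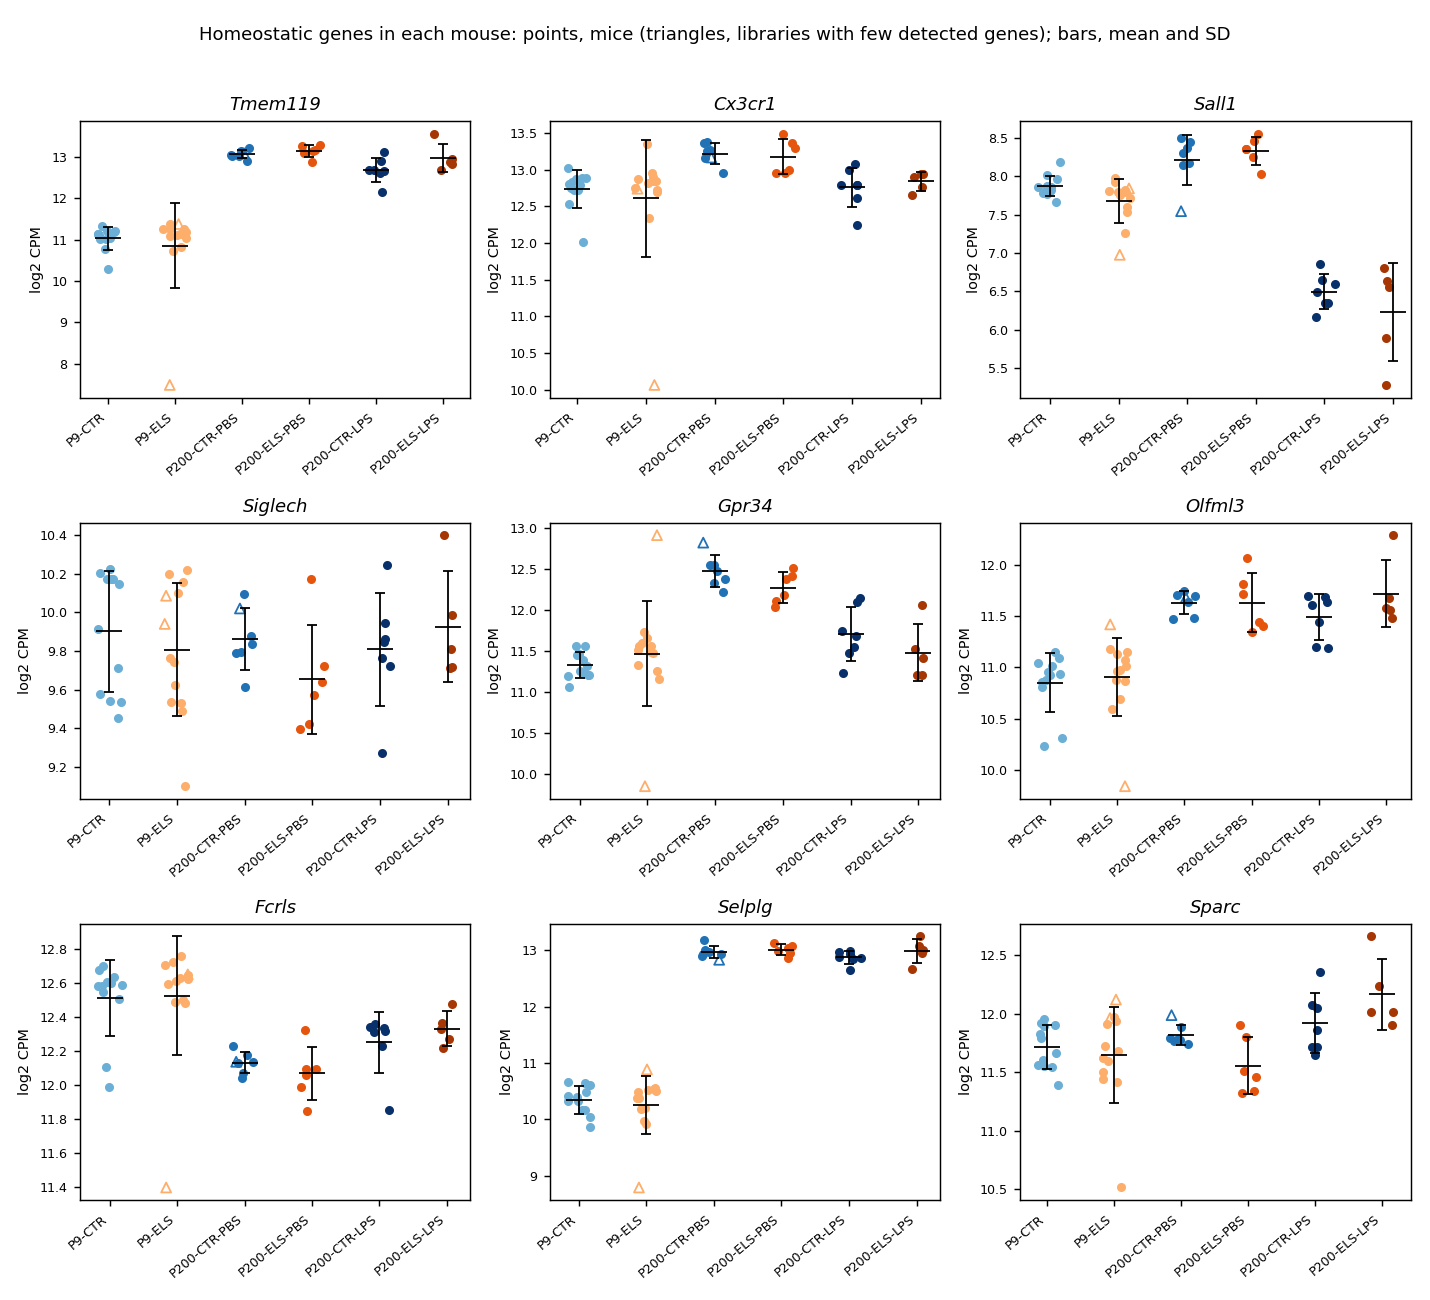
Log2 CPM of the 9 genes in each mouse by group. Points are mice, open triangles the 3 libraries with few detected genes, and bars the mean and SD. The P200 groups lie above all P9 mice for Selplg and Tmem119, and both LPS groups lie below all other mice for Sall1.

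Markers of other cells differed between the ages as well. Of 10 genes of border-associated macrophages, 9 were called lower at P200 in CTR and 7 in ELS, and their summed level was 747 to 1126 CPM in P9-CTR and 155.5 to 205.5 CPM in P200-CTR-PBS. In ELS it was 656 to 1219.8 CPM at P9 and 136.5 to 284.4 CPM in P200-ELS-PBS, and Clec10a was at 0 in all mice of both P200-PBS groups. Of 9 neuronal genes, 9 and 7 were called lower, with a sum of 78.95 to 219 CPM in P9-CTR and 2.54 to 11.9 CPM in P200-CTR-PBS. In P9-ELS it was 41.9 to 165.5 CPM and in P200-ELS-PBS 4.125 to 10.2 CPM. Of 8 astrocyte genes, 7 were called lower in each condition and Slc1a3 was called higher. The astrocyte sum was 171 to 405 CPM in P9-CTR, 302 to 503 CPM in P200-CTR-PBS, 115.5 to 355 CPM in P9-ELS and 316 to 455 CPM in P200-ELS-PBS. Summed without Slc1a3, the other 7 astrocyte genes were at 99.1 to 252.6 CPM in P9-CTR and 66.9 to 218.6 CPM in P9-ELS, and at 0.051 to 16.3 CPM in P200-CTR-PBS and 3.09 to 6.55 CPM in P200-ELS-PBS, so that Slc1a3 made up nearly all of the astrocyte sum at P200. Of 8 tested oligodendrocyte lineage genes, 4 were called lower and 1 higher in CTR, and 2 lower and 1 higher in ELS, the higher one being Mag in both. Of 6 tested endothelial genes, 3 were called lower and 1 higher in CTR, and 3 lower and 2 higher in ELS, the higher ones being Pecam1 in both and Kdr in ELS. The part of these markers in the age differences of the members was not tested.

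Genes of the same program were taken from lists. A gene named for only CTR or only ELS may also have changed in the other condition. Of 34 other homeostatic genes, 22 were called higher at P200 in CTR and 2 lower. In ELS 22 were called higher and 3 lower. On the log2 scale their median was 0.71 in CTR mice and 0.53 in ELS mice. Upk1b, a uroplakin, rose by 6.79 ± 0.34 (log2, SE) in CTR and 6.43 ± 0.33 in ELS, from a mean of 3.46 ± 1.84 CPM (SD, n = 12) in P9-CTR to 386 ± 59.5 (n = 7) in P200-CTR-PBS. Lrrc3 rose by 3.85 ± 0.20 and 4.05 ± 0.20 on the same scale. Gas6, a ligand of TAM receptor tyrosine kinases, fell, with log2 fold changes of -3.01 ± 0.27 in CTR and -1.95 ± 0.27 in ELS. Of 13 other transcription factors of macrophage and microglia identity, 8 were called higher in each condition, among them Bhlhe41 (log2 fold change 1.72 ± 0.23 in CTR and 1.46 ± 0.23 in ELS) and, in ELS, Sall3 (1.49 ± 0.13). Klf2 was called lower in CTR (-1.49 ± 0.61).

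Of 14 genes of the TGF-beta axis, 9 were called higher and 1 lower in CTR, and 10 higher and 1 lower in ELS. The receptor Tgfbr1 rose by 1.61 ± 0.21 (log2, SE) in CTR and 1.75 ± 0.21 in ELS. Pmepa1, a target and inhibitor of the pathway, rose by 1.71 ± 0.23 in CTR, and the inhibitory Smad7 by 1.71 ± 0.20 in ELS. Itgb8, an integrin that activates latent TGF-beta, fell, with log2 fold changes of -2.50 ± 0.96 in CTR and -5.30 ± 1.27 in ELS, at a mean of 1.71 CPM in P9-CTR and 0.298 CPM in P200-CTR-PBS. Of the ligands and signalling partners of the members, 7 of 11 were tested, 3 were called lower in CTR and 4 in ELS, and 0 higher. Cx3cl1, the ligand of Cx3cr1, fell, with log2 fold changes of -2.99 ± 1.01 in CTR and -4.27 ± 1.19 in ELS, from a mean of 5.25 CPM in P9-CTR. Csf1 (-1.05 ± 0.30 in CTR and -1.15 ± 0.31 in ELS) and the inhibitory G protein subunit Gnai2 (-0.47 ± 0.16 and -0.58 ± 0.17) also fell. Of 17 genes of disease-associated microglia, some of which are also high in early postnatal microglia, 9 were called lower and 3 higher in CTR, and 10 lower and 2 higher in ELS. Igf1 (-7.89 ± 0.54 in CTR and -8.78 ± 0.60 in ELS) and Spp1 (-7.61 ± 0.59 and -6.91 ± 0.60) fell in both, and Gpnmb (-7.94 ± 1.01 in CTR) and Apoe (-6.89 ± 0.35 in ELS) were also among the largest changes. Both were also lower at P200 in the other condition. Mean Gpnmb was 20.38 CPM in P9-ELS and 0.2067 CPM in P200-ELS-PBS. Mean Apoe was 8032.7 CPM in P9-CTR and 54.23 CPM in P200-CTR-PBS. Of 14 tested genes of the acute response to LPS, 4 were called higher in CTR, and 6 higher and 2 lower in ELS. Il6 rose by 5.17 ± 0.57 in CTR and 4.55 ± 0.54 in ELS, Il1a by 1.40 ± 0.22 and Nfkbia 2.31-fold in CTR, and Socs3 by 1.56 ± 0.40 in ELS. Il12b was called higher in ELS (2.59 ± 0.99) at a median of 0 CPM in both groups, with 2 of 6 P200-ELS-PBS mice above 0 and the highest at 3.64 CPM.

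The next comparison asked how the members responded to LPS at P200. In CTR mice 2 of 9 members were called lower and 0 higher, where 6.2% of all tested genes were called lower and 8.73% higher. The 2 were Sall1 and Gpr34. In ELS mice the same 2 genes were called lower and 1, Sparc, was called higher, against 4.94% and 7.4% of all tested genes. Only Sall1 passed a 2-fold change, in both conditions, where 9.62% of all tested genes in CTR and 7.86% in ELS were called at that size.

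Sall1 fell most. Its level was 186, 315 and 360.3 CPM (lowest, median, highest) in P200-CTR-PBS and 71.9, 89.9 and 116 CPM in P200-CTR-LPS. In P200-ELS-PBS it was 261, 328 and 375 CPM, and in the 5 P200-ELS-LPS mice 38.7, 59.1, 94.3, 98.8 and 111 CPM. Every LPS mouse was below every PBS mouse in both conditions. Sall1 had a log2 fold change of -1.73 ± 0.16 (SE, adjusted p = 1.17e-12) in CTR and -2.01 ± 0.18 (adjusted p = 1.8e-12) in ELS, a level 3.31-fold and 4.03-fold lower. Every LPS mouse was also below every P9 mouse.

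Gpr34 was at 4773, 5692 and 7254 CPM (lowest, median, highest) in P200-CTR-PBS and at 2413, 3302 and 4559 CPM in P200-CTR-LPS, without overlap. In P200-ELS-PBS it was at 4219.9, 4992 and 5838 CPM, and in the P200-ELS-LPS mice at 2369 CPM in the mice of nests 2 and 20, 2729.5, 2952 and 4278 CPM. The highest ELS-LPS mouse overlapped the PBS group. For Gpr34 the log2 fold change was -0.75 ± 0.20 in CTR mice (SE, adjusted p = 0.00695) and -0.76 ± 0.23 in ELS mice (adjusted p = 0.0201). In ELS the call was lost without the LPS mouse of nest 2 (adjusted p = 0.0645) or of nest 20 (0.0653), each at a log2 fold change of -0.69.

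Cx3cr1 was at 7943 to 10663 CPM in P200-CTR-PBS and at 4856 to 8616 CPM in P200-CTR-LPS, and 5 of 7 LPS mice were below every PBS mouse. Cx3cr1 had a log2 fold change of -0.45 ± 0.20 (SE, adjusted p = 0.124) in CTR and -0.35 ± 0.22 (adjusted p = 0.353) in ELS, where the 5 LPS mice with 6452, 6922, 7655, 7824 and 7888 CPM were below all PBS mice (7936 to 11471 CPM). Tmem119 had a log2 fold change of -0.35 ± 0.23 (SE, adjusted p = 0.349) in CTR, with 6 of 7 LPS mice below every PBS mouse, and of -0.13 ± 0.26 (adjusted p = 0.815) in ELS. In CTR both genes were called lower without the 3 libraries of few genes, which made 4 of 9 members (Cx3cr1 adjusted p = 0.00472, Tmem119 0.0416), and in a fit of the groups compared alone (0.0108 and 0.046). Their log2 fold changes in those fits lay between -0.46 and -0.35. The share of all tested genes called lower in those fits is not given here.

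Sparc was at 3417, 3519.7 and 4064 CPM (lowest, median, highest) in P200-CTR-PBS and at 3204, 3729.6 and 5241 CPM in P200-CTR-LPS, and it was not called there (log2 fold change 0.12, 95% interval from -0.16 to 0.40). The highest P200-CTR-PBS mouse was a library of few genes, without which the highest was at 3783 CPM. In P200-ELS-PBS it was at 2562, 2873 and 3839.9 CPM, and in the P200-ELS-LPS mice at 3828, 4139.8, 4142, 4831 and 6482 CPM. In ELS 4 of 5 LPS mice were above every PBS mouse, and Sparc rose by a log2 fold change of 0.62 ± 0.16 (SE, adjusted p = 0.00609). Without the LPS mouse of nest 11, the highest, it was 0.47 with an adjusted p of 0.0516. The difference between the conditions in the LPS response of Sparc was 0.50 ± 0.22 (SE, unadjusted p = 0.0246, adjusted p = 0.735, edgeR interaction term).

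Selplg, Olfml3, Siglech and Fcrls were not called in either condition. Selplg was at 7547 ± 579.7 CPM (SD, n = 7) in P200-CTR-LPS against 8012 ± 624 (n = 7) in P200-CTR-PBS, and the 95% interval of its log2 fold change ran from -0.38 to 0.21 in CTR and from -0.35 to 0.32 in ELS. Olfml3 had intervals from -0.42 to 0.17 and from -0.24 to 0.43. Those of Siglech ran from -0.34 to 0.27 in CTR and from -0.07 to 0.62 in ELS. Fcrls had a log2 fold change of 0.26 in ELS (adjusted p = 0.219), and it was called higher without the 3 libraries of few genes (adjusted p = 0.0425).

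**Figure D3:**
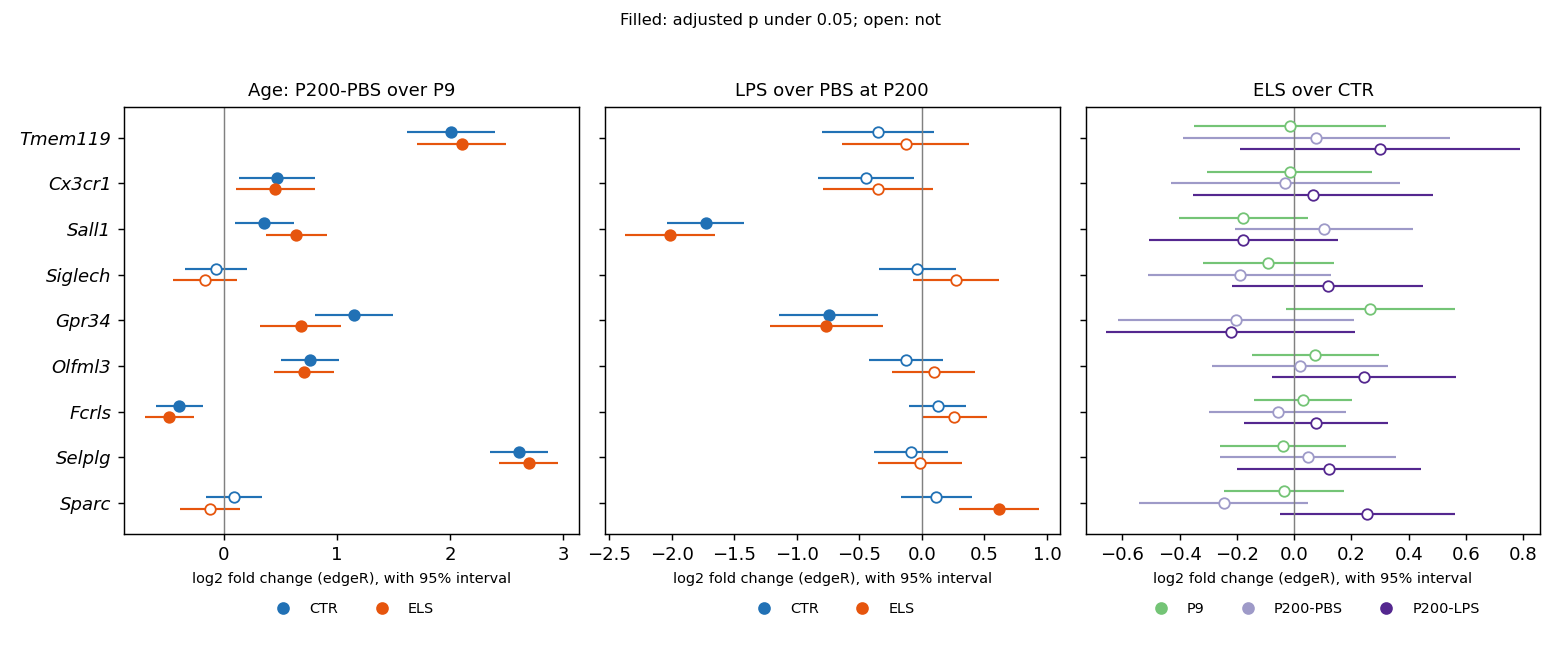
Log2 fold change of each gene with its 95% interval from edgeR for age (left), LPS (middle) and ELS (right), on a scale of its own in each panel. Filled points have an adjusted p under 0.05. Between the ages, which also differ in injection and Percoll, 7 of 9 genes are filled in each condition, where 44.1% (CTR) and 42.2% (ELS) of all tested genes were called. For LPS, Sall1 and Gpr34 are filled in both conditions and Sparc in ELS. In the right panel, ELS over CTR, no point is filled.

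Of the 34 other homeostatic genes, 2 were called lower and 2 higher after LPS in CTR, and 2 lower and 10 higher in ELS. Of all tested genes, 6.2% were called lower and 8.73% higher in CTR, and 4.94% and 7.4% in ELS. The median log2 fold change of the 34 was -0.041 in CTR and 0.047 in ELS. The interaction of LPS and ELS called 0 of the 34 (smallest edgeR adjusted p = 0.281). P2ry12, the ADP receptor of microglial processes, fell (log2 fold change -0.62 ± 0.16 SE in CTR and -0.58 ± 0.18 in ELS), from a mean of 14389 ± 1254 CPM (SD, n = 7) to 9373 ± 1852 (n = 7) in CTR. P2ry6, a UDP receptor, rose by 1.02 ± 0.14 in CTR and 1.06 ± 0.16 in ELS. Rtn4rl1, a receptor of the Nogo family, fell in ELS (-1.12 ± 0.34). Of the 13 identity factors other than Sall1, 4 were called lower and 2 higher in CTR, and 5 lower and 2 higher in ELS. Maf fell (-1.58 ± 0.22 in CTR and -1.77 ± 0.25 in ELS), from 379 ± 37.8 CPM (SD, n = 7) to 127 ± 24.0 (n = 7) in CTR. Runx1 rose by 2.17 ± 0.20 and 1.86 ± 0.22, and Klf2 by 2.91 ± 0.69 and 2.64 ± 0.74 at group means of 0.361 to 4.00 CPM. Cebpa and Mef2c were also called lower in both conditions and Bhlhe41 in ELS.

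**Figure D4:**
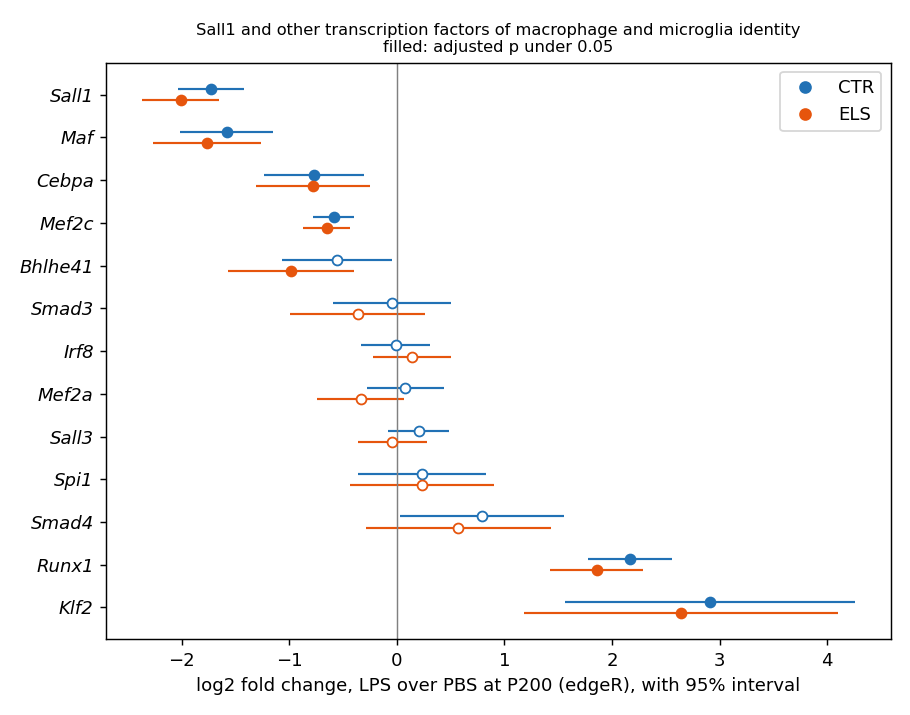
Log2 fold change of Sall1 and 12 of the 13 other transcription factors after LPS at P200, with 95% intervals from edgeR, in CTR and ELS mice. Filled points have an adjusted p under 0.05. Sall1 and Maf lie at the low end and Runx1 and Klf2 at the high end in both conditions.

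Of the 14 TGF-beta genes, 1 was called lower and 3 higher in CTR, and 1 lower and 2 higher in ELS. Skil, a repressor of SMAD activity, rose by 1.79 ± 0.27 (log2, SE) in CTR and 1.81 ± 0.30 in ELS. Tgfb1 rose by 0.98 ± 0.32 in CTR, and Nrros, which presents latent TGF-beta, by 0.80 ± 0.25 in ELS. Itgb8 (-4.47 ± 1.32) was called lower in CTR at group means of 0.298 and 0.0104 CPM, and Tgfbr1 (-0.80 ± 0.28) in ELS. Of 7 tested ligands and partners, 1 was called higher in CTR and 2 in ELS, Csf1 (1.37 ± 0.33 and 1.31 ± 0.36) and, in ELS, Tyrobp (0.54 ± 0.15). Of 17 disease-associated genes, 6 were called higher in each condition and 1 was called lower in CTR. Ch25h rose by 6.88 ± 0.84 in CTR and 7.73 ± 0.94 in ELS, Spp1 by 5.13 ± 0.54 in CTR, and Fabp5 by 4.53 ± 0.58 and Ccl4 by 3.87 ± 0.40 in ELS, while Igf1 fell in CTR (-3.19 ± 0.96). In CTR, mean Ccl4 was also higher after LPS, at 1387.2 CPM against 222.4 after PBS, and mean Fabp5 at 1.997 against 0.4338 CPM. Of 14 tested acute response genes, 13 were called higher in each condition. Ptgs2 rose by 9.87 ± 0.95 in CTR and 9.87 ± 1.01 in ELS, and Cxcl10 by 7.89 ± 0.73 and 9.19 ± 0.84. Il12b rose by 9.42 ± 1.14 in CTR and Il1b by 8.70 ± 0.80 in ELS. Both were also higher after LPS in the other condition. Mean Il12b was 0.6127 CPM in P200-ELS-PBS and 138.7 CPM in P200-ELS-LPS. Mean Il1b was 1.734 CPM in P200-CTR-PBS and 405.4 CPM in P200-CTR-LPS.

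Of 13 monocyte and neutrophil genes, 3 were tested, and the sum over all 13 was 0.712 to 9.12 CPM in P200-CTR-PBS, 2.81 to 9.04 in P200-CTR-LPS, 3.58 to 11.13 in P200-ELS-PBS and 0.877 to 18.32 in P200-ELS-LPS. Ly6g and Retnlg were at 0 in all mice of the 4 groups. The sum of the border-associated macrophage genes was 96.7 to 218 CPM in P200-CTR-LPS and 97.6 to 156.6 CPM in P200-ELS-LPS. The astrocyte sum was 486 to 618 CPM in P200-CTR-LPS and 423 to 585 CPM in P200-ELS-LPS, and without Slc1a3 it was 3.995 to 20.7 CPM and 4.88 to 14.6 CPM. The endothelial sum was 39.3 to 71.0 CPM in P200-CTR-PBS and 61.0 to 93.7 CPM in P200-CTR-LPS, and 30.3 to 73.4 CPM and 45.0 to 99.6 CPM in the ELS groups. Of the tested marker genes, 2 of 6 endothelial genes (Cdh5 and Kdr) and 1 of 8 astrocyte genes (Slc1a3) were called higher after LPS in CTR, and of 10 border-associated macrophage genes Folr2 was called lower and Cbr2 higher. In ELS 2 astrocyte genes (Gfap and Gja1) and 1 monocyte and neutrophil gene (Vcan) were called higher, and 1 border-associated macrophage gene (Stab1) was called lower. Of the neuronal and oligodendrocyte lineage genes 0 were called in either condition. Their part in the LPS differences was not tested.

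The study asked whether ELS alters microglia at P9 and at P200, at rest and after LPS. The paper reported almost no change at P9, and at P200 after PBS a set of changed genes with Gas6 raised. Here Gas6 was at 78.85 ± 16.95 CPM (SD, n = 7) in P200-CTR-PBS and 176.7 ± 55.41 (n = 6) in P200-ELS-PBS. Of the 34 other homeostatic genes, which include Gas6, 0 were called in ELS against CTR. Their smallest edgeR adjusted p was 0.0564 and their highest log2 fold change 1.164, both after PBS. The paper used a generalized linear model in edgeR with another filter and a fold change cut-off. It reported more genes after PBS than the 28 called here, so the calls are not on the same terms. The paper also reported more GAS6-positive microglia in the human dentate gyrus of depressed suicides abused as children. Of the 9 members, 0 were called in ELS against CTR at P9, at P200 after PBS and at P200 after LPS, where 0%, 0.168% and 0% of all tested genes were called by edgeR. At an unadjusted p under 0.05 there were 0 members in each, and 914, 1622 and 796 of all tested genes. The likelihood-ratio test, DESeq2 and limma also called 0 members, and the shares of all tested genes that they called are not given here. Of the marker genes of other cells, 1, Gfap of the astrocyte list, was called, lower in P200-ELS-PBS than in P200-CTR-PBS (0.108 ± 0.169 CPM, n = 6, against 1.28 ± 1.195, n = 7, edgeR adjusted p = 0.0466). At P9 the log2 fold changes lay between -0.18 and 0.27, with the ends at Sall1 (95% interval from -0.40 to 0.05) and Gpr34 (from -0.03 to 0.56). After PBS they lay between -0.25 for Sparc (from -0.54 to 0.05) and 0.10 for Sall1 (from -0.21 to 0.41). After LPS they lay between -0.22 for Gpr34 (from -0.66 to 0.21) and 0.30 for Tmem119 (from -0.19 to 0.79). The intervals for Selplg, from -0.26 to 0.18 at P9, and for Fcrls, from -0.14 to 0.20, were among the narrowest. Without the 3 libraries of few genes the P9 value of Gpr34 was 0.16. Leaving out 1 mouse moved 4 of these 6 values by more than 1.5 times. Gpr34 at P9 was at 0.08 without mouse 2 of nest 19, and Sall1 after PBS at 0.01 without mouse 1 of nest 1. After LPS, Tmem119 was at 0.12 without the ELS mouse of nest 11, and Gpr34 was at -0.40 without the ELS mouse of nest 4. At each age a nest held mice of 1 condition, and at P9 there were 5 nests of CTR and 4 of ELS. Nests took between 38.2% (Sall1) and 97.2% (Olfml3) of the variance of log2 CPM among the 12 P9-CTR mice, and between 4.1% (Gpr34) and 78.8% (Siglech) among the 13 P9-ELS mice. Such a share is above 0 even where nests do not differ, and the share expected by chance was not computed. The P9-ELS shares include the libraries of few genes, which in nest 19 set the Gpr34 range of 927 to 7727 CPM. The limma fit that called 0 members had the nest as random effect, with the same correlation of 0.0778 for all genes. It therefore does not account for larger nest differences of single members. The edgeR p-values take nest mates as independent mice.

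The interaction of age and ELS called 0 of 9 members and 0.0299% of all tested genes, and that of LPS and ELS called 0 of 9 and 0%. At an unadjusted p under 0.05 there were 0 members and 1712 genes for the first, and 1 member, Sparc, and 980 genes for the second. The largest member value in the age interaction was that of Gpr34, -0.47 (95% interval from -0.98 to 0.04, adjusted p = 0.539), and it was -0.30 without the 3 libraries. For Sall1 the LPS response differed by -0.28 between the conditions (from -0.74 to 0.17).

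In order of mean log2 CPM, Selplg and Tmem119 had both P9 groups at the bottom, and the step from P9-CTR to P200-CTR-LPS (2.54 for Selplg and 1.65 for Tmem119 on the log2 scale) was the only step between neighbouring groups larger than the larger of their SDs. Sall1 had 2 such steps, from P200-CTR-LPS to P9-ELS (1.18) and from P9-CTR to P200-CTR-PBS (0.34). Gpr34 had steps from P200-CTR-LPS to P200-ELS-PBS (0.56) and from there to P200-CTR-PBS (0.20). Cx3cr1 had 1 from P200-ELS-LPS to P200-ELS-PBS (0.34) and Olfml3 had 1 from P9-ELS to P200-CTR-LPS (0.59). For Siglech, Fcrls and Sparc no pair of neighbouring groups differed beyond their spread. Without the 3 libraries of few genes the second step of Gpr34 was within the spread, the step of Tmem119 ran from P9-ELS to P200-CTR-LPS (1.57), the second step of Sall1 was 0.45, and the other steps named here were again beyond the spread.

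Within groups the members did not vary as a single block. After the mean of each group was subtracted, the median Pearson r of log2 CPM over the 36 pairs of members was 0.17 (50 mice), and 25 of the 36 were above 0. The highest values included 0.91 for Tmem119 and Cx3cr1, 0.84 for Fcrls and Selplg and 0.83 for Tmem119 and its neighbour Selplg. For Tmem119 and Selplg the value was 0.89 over the P9 mice and 0.20 over the P200 mice. Tmem119 and Fcrls were at 0.92 over the P9 mice, 0.80 there without the libraries of few genes, and -0.14 over the P200 mice. Cx3cr1 and Olfml3 were at 0.79, 0.66 and 0.75 in the same order. The lowest was -0.61 for Gpr34 and Selplg. Without the 3 libraries of few genes the median was 0.28 (47 mice) and 29 pairs were above 0, Tmem119 and Cx3cr1 were at 0.56, Fcrls and Selplg at 0.68, Tmem119 and Selplg at 0.54 and Gpr34 and Selplg at -0.04. Siglech and Sparc were at 0.81 both with and without them. These are descriptions over mice that share a preparation, an age and, in part, a nest, and library depth also varies among them.

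**Figure D5:**
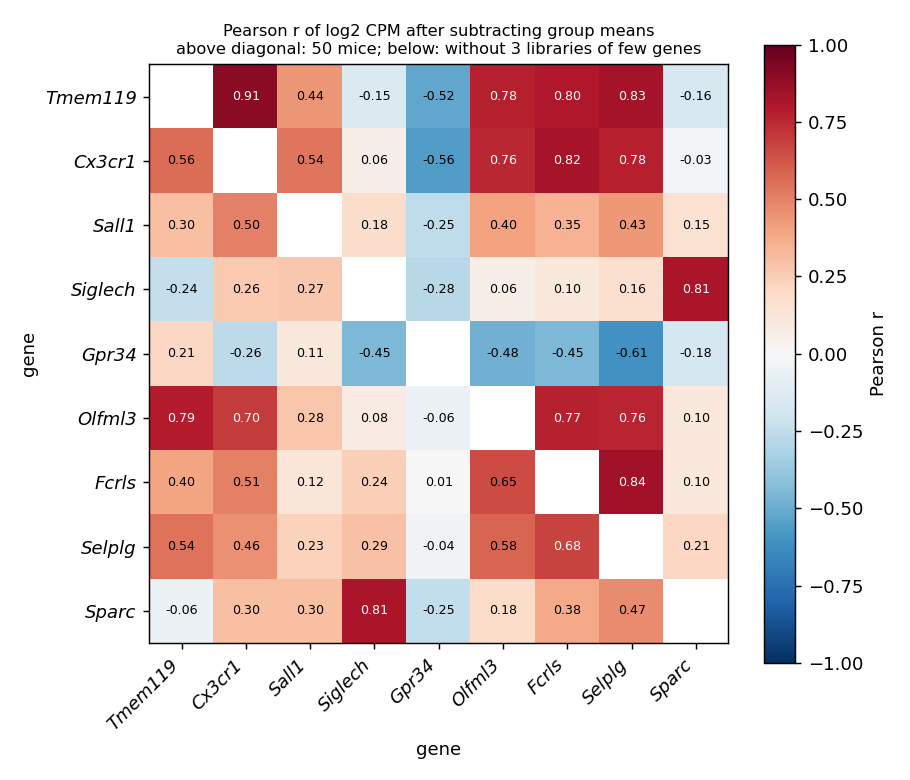
Pearson r between the genes over mice after group means were subtracted from log2 CPM, above the diagonal for 50 mice and below it without the 3 libraries with few detected genes. Both sides of the diagonal pool P9 and P200 mice. Tmem119, Cx3cr1, Olfml3, Fcrls and Selplg are positively related on both, though not all of their pairs are over the P200 mice alone. Siglech and Sparc reach 0.81 on both, and Gpr34 is at -0.61 with Selplg above the diagonal and at -0.04 below it.

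Among the genes outside the 9, those with the highest mean r with the members over the 50 mice, with group differences left in, included Prkab1 (0.43), Abi3 (0.43), Zfp652 (0.42), Gm15774 (0.42) and Ctc1 (0.42). Their r with single members ranged from -0.36 to 0.97, and the closest member was Tmem119 for each of these 5. Over the 25 P200 mice they included Idh2 (0.44), Hexa (0.44), Coro1b (0.43), Ddrgk1 (0.43) and Praf2 (0.43).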

How the data were processed

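Poly-A RNA of sorted hippocampal microglia from 50 male mice was measured. Reads were demultiplexed by the authors (bcl2fastq 2.20), trimmed (cutadapt 2.10), aligned to GRCm39 by STAR and, where unique and exonic, assigned to genes by HTSeq 0.11.0. The deposited values are these raw counts. The annotation release is not given in the sources used here, and positions came from GENCODE on the same build. Groups follow the labels, and nests were taken from the first part of each mouse label, separately for each age.

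Counts were normalized with TMM and tested with the quasi-likelihood test of edgeR 4.0.16 (R 4.3.3), as contrasts of 6 group means over all mice, with Benjamini-Hochberg adjustment over 16696 genes. CPM uses TMM library sizes, log2 CPM a prior count of 2, and 95% intervals are normal intervals from the standard errors. The test was also run on simulated counts with the same dispersion for all genes, without nests and without libraries of few genes. That run does not cover these features of the data. P-values measure the spread between mice, and the depth, at least 5152838 counts per mouse, gave every member at least 536 counts.

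Alternatives were edgeR's likelihood-ratio test, DESeq2 1.42.0, its size factors in edgeR, no filter, the compared groups alone, limma 3.58.1 with nest as random effect, a nest block, and fits without the 3 libraries under 16000 detected genes or without each mouse. The canonical transcript length, levels without the 3 libraries and the astrocyte sum without Slc1a3 were added after seeing the data. Named list genes are the 3 largest changes among those called per list and comparison, and Cebpa, Mef2c, the marker genes of other cells and the LPS value of Bhlhe41 were named after their values were seen. Some genes that the rule names are not reported here. The members and lists were chosen with earlier results of these data known.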

Additional observations from a re-analysis of the deposited data

Results flagged for a closer look

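In the 36 combinations of a gene and a P200 group, 4 held a mouse whose gap to its nearest neighbour, divided by the range of the group, was above Dixon's 95% critical value, and chance alone marks about 1 in 20 groups. Tmem119 was at 12045.7 CPM in the P200-ELS-LPS mouse of nest 11, where the other mice lay between 6600.2 and 7851.2 (gap over range 0.77, critical value 0.71). Olfml3 was at 4992.4 CPM in the same mouse, against 2863.4 to 3278.1 in the others (0.805, critical value 0.71). Siglech was at 1153.8 CPM in the P200-ELS-PBS mouse of nest 2, against 673.7 to 845.7 (0.642, critical value 0.625). Fcrls was at 3701.3 CPM in mouse 3 of nest 5 in P200-CTR-LPS, below the 4811.2 to 5263.7 of the others (0.71, critical value 0.568).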

How the results depend on the processing

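Of 594 values of the members under alternatives other than leaving out single mice, 575 kept their direction and their side of the threshold. After LPS in CTR, 4 members in place of 2 were called lower with only the groups compared and without the 3 libraries of few genes, the additional ones being Tmem119 and Cx3cr1. After LPS in ELS, 2 members in place of 1 were called higher without these libraries and with the nest as a block, the additional one being Fcrls. For these alternatives the shares of all tested genes called are not given here. The median r within groups was 0.283 without these libraries and 0.157 with DESeq2 size factors. Values near 0 changed sign. In ELS against CTR at P9, Tmem119 was at 0.0691 and Cx3cr1 at 0.0906 without the 3 libraries. After LPS in ELS, Selplg was at 0.0105 with DESeq2 and with its size factors, at 0.0231 without a filter and at 0.0171 with the block. In the interactions, Cx3cr1 (age) was at 0.0991 in limma, and Gpr34 (LPS) at 0.0135 without a filter and 0.0238 with only the groups compared.

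Over 50 fits that left out 1 mouse each, these log2 fold changes spanned 0. In ELS against CTR at P9, Tmem119 ranged from -0.064 to 0.0918, Cx3cr1 from -0.0747 to 0.0821, Fcrls from -0.0062 to 0.0954, Selplg from -0.0983 to 0.0369 and Sparc from -0.0772 to 0.034. After PBS, Cx3cr1 ranged from -0.0976 to 0.0171 and Olfml3 from -0.0789 to 0.0751, and after LPS Cx3cr1 from -0.0066 to 0.1214 and Siglech from -0.0216 to 0.1987. In the LPS response Siglech ranged from -0.1173 to 0.0399 in CTR, and in ELS Olfml3 ranged from -0.0788 to 0.1932 and Selplg from -0.0812 to 0.0605. The number of members called in ELS ranged from 1 to 2 lower and from 0 to 1 higher. Where 1 was called lower, 609 of all tested genes were without the LPS mouse of nest 2 and 619 without that of nest 20. Where 0 were called higher, without the LPS mouse of nest 11, 1126 of all tested genes were. In the age interaction Tmem119 ranged from -0.0148 to 0.1464, Cx3cr1 from -0.1133 to 0.0489 and Olfml3 from -0.1524 to 0.0016, and in the LPS interaction Gpr34 from -0.1923 to 0.0635. The causes were not tested.

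The main fit did not pair the P200 mice by nest, although each of the 10 nests held PBS and LPS mice. Deviations of nest mates in the PBS and the LPS group correlated between -0.041 and 0.084 over all tested genes, 0 of them above 0.1. At 1 or 2 mice per nest and injection, these values cannot show that pairing is absent. With the nest as a block, Cx3cr1 was called lower after LPS in CTR (-0.47, adjusted p = 0.00293 by edgeR). All results rest on 5 to 13 mice a group.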
